A study of Homo sapiens with 22 samples.

Results

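Wide H3K27ac domains are long stretches of chromatin over which peaks of acetylated lysine 27 on histone H3 join up when peak lists are merged, although a single list may leave gaps in them. The domains described here were defined in TC-32, an established Ewing sarcoma cell line. Cells received 20 nM siRNA by reverse transfection, either the control siNEG or siFLI1, which targets FLI1, and chromatin was crosslinked with formaldehyde for ChIP-seq. Peaks of the 4 replicated H3K27ac lists, 2 per arm, were merged wherever they shared at least 1 bp on chromosomes 1 to 22 and X. A merged region was kept when all 4 lists held a peak in it and its merged width was at least 10 kb. Of 90572 merged regions, 22724 were present in all 4 lists, and 595 of those were wide domains (2.62% of the shared regions, 13.2% of their bases). Because the members were chosen on the measured H3K27ac peaks of these same 4 lists, every H3K27ac value in those lists is a description and carries no test. Independent of the choice were 2 H3K4me3 lists per arm, a further H3K27ac pair with the antibody label ab4729 and 1 library per arm, and 2 ETS1 lists per arm. The series has 22 samples, of which 14 have peak lists and 8 are inputs that were not analysed here.

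H3K27ac marks active promoters and enhancers, and very long acetylated stretches, often called super-enhancers or stretch enhancers, tend to lie at genes that define a cell's identity. H3K4me3 marks active promoters. In Ewing sarcoma a chromosomal fusion joins EWSR1 to FLI1, and the resulting protein EWSR1::FLI1 is known to bind runs of the tetranucleotide GGAA (GGAA microsatellites) and to turn them into enhancers. The study depleted that fusion with the FLI1 siRNA and profiled ETS1, a related transcription factor. All groups came from this 1 cell line, and the labels name no treatment other than the siRNA. The labels do not say whether replicates were separate transfections, and p-values therefore measure only the spread between these libraries, which may be technical. FLI1 RNA or protein was not among the values analysed here, and the depletion could not be checked in these files. The lists came from bulk chromatin, in which a shorter acetylated stretch in every cell and a loss in some of the cells cannot be told apart.

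Domain widths ran from 10020 to 72685 bp with a median of 12807 bp, against a median of 2146 bp for the 22129 shared regions under 10 kb. There were 74 domains of 20 kb or more and 14 of 30 kb or more. In the single lists the domains were largely filled. The median covered length per domain was 11237 and 11030 bp in the siNEG lists and 11204 and 11158 bp in the siFLI1 lists, and the median share of a domain that was covered lay between 88.5% and 89.5%. The 4 lists held 60027 and 60401 peaks in siNEG and 65501 and 61481 peaks in siFLI1, of which the domains took 11.2% to 13.0% of the covered bases. Depth was not given in the lists. Chromosome 19 held 0.495 domains per Mb and chromosome 17 held 0.408, while chromosome 13 held 0.0525. Within 10 kb of another domain lay 105 domains, and 41 lay within 1 kb, so some neighbours are parts of a longer acetylated locus.

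Protein-coding start sites (GENCODE release 44) lay in 231 domains (38.8%), 269 lay inside a coding gene without a start site, and 95 lay between genes. Together the domains held the start sites of 288 coding genes, 1.44% of the 19970 annotated on these chromosomes. Just outside the width limit were regions at NANOS3 (9999 bp), TPM1 (9992 bp) and KIAA1671 (9987 bp). Just inside were TEAD1 (10020 bp), CORO1C (10020 bp) and ZBTB20 (10028 bp). Log2 ratios of siFLI1 over siNEG covered length were 0.14, 3.12 and 0.10 outside the limit and 0.09, 0.14 and -0.03 inside it.

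Some domains held GGAA runs, and the sequences are shown because the change in H3K27ac differed between domains with and without them. A run was at least 4 GGAA units in a row on either strand of the hg38 reference, with no mismatch. The lines below give runs with 30 bases on each side, read 5′ to 3′ on the strand that spells GGAA, with the run in capitals. The first 3 belong to domains whose H3K27ac covered length was lower after siFLI1, BACE2 is another such domain, and the last 3 belong to domains that were neither shorter nor longer by the rule given after the sequences.
ST8SIA5, chr18:46724961-46725080, plus strand, 15 units: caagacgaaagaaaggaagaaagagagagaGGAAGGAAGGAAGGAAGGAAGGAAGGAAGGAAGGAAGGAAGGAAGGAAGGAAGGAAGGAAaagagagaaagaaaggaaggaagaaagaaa
ZBTB16, chr11:114148308-114148419, minus strand, 13 units: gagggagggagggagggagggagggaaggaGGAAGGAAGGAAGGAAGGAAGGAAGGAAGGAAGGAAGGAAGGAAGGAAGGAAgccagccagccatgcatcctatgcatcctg
MUC6, chr11:1044389-1044512, minus strand, 16 units: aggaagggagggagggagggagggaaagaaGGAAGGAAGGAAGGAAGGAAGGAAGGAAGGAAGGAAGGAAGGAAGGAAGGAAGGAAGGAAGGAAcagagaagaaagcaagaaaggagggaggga
BACE2, chr21:41091381-41091500, plus strand, 15 units: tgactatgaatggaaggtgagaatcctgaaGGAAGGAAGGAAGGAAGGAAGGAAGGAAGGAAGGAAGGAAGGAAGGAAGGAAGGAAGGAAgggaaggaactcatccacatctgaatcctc
CAV2/CAV1, chr7:116523057-116523180, plus strand, 16 units: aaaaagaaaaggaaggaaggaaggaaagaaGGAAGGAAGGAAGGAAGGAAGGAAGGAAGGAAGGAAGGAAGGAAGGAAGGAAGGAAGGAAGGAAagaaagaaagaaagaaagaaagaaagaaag
GRK5, chr10:119344845-119344964, minus strand, 15 units: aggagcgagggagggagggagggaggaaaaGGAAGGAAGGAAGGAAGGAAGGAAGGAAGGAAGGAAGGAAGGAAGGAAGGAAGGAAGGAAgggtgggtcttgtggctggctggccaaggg
OTX2, chr14:56826211-56826310, plus strand, 10 units: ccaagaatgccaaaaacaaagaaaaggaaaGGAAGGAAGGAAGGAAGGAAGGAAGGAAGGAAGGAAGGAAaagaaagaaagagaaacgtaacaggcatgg
Run length did not separate these examples, since the CAV2/CAV1 run has 16 units and the ZBTB16 run 13. The last 3 were picked by gene name, and the CAV2/CAV1 domain is the widest of all, so the examples say nothing about run length in general.

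A run was present in 122 of 595 domains (20.5%), which held 172 runs of 4 to 32 units. The same share was 9.04% in shared regions of 5 to 10 kb and 5.74% in 592 domain intervals moved by 1 Mb. Wider regions hold more sequence, and per Mb the domains held 19.4 runs and the regions of 5 to 10 kb held 19. Of the 172 runs, 155 and 160 overlapped an H3K27ac peak in the siNEG lists and 132 and 133 in the siFLI1 lists. Density of the motif TGANTCA, which AP-1 factors bind, was 0.343 per kb in shortened, 0.339 in lengthened and 0.338 in other domains, where the classes are those defined next. The ETS motif CCGGAA, counted on both strands, had 0.12, 0.149 and 0.158 matches per kb in those classes.

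The H3K27ac covered length of most wide domains was neither clearly shorter nor clearly longer after siFLI1. A domain was called shorter or longer when both lists of an arm lay outside both lists of the other and the arm means differed by at least 1.2-fold. By that rule 84 domains (14.1%) were shorter, 94 (15.8%) were longer and 417 (70.1%) were neither. Covered length cannot exceed the width of the domain, and only 184 of the 595 domains were empty enough in siNEG to rise by 1.2-fold, among them all 94 longer domains and 90 of the 417 that were neither. A count of domains that were neither is thus no measure of unchanged acetylation. Over all 22724 shared regions, 17.4% were shorter and 30.0% were longer, and these contrasts were used in choosing the regions, so nothing is read from the difference in shares. The median log2 ratio was 0.01 over the domains (quartiles -0.13 and 0.17) and 0.11 over all shared regions. Relative to that shift of 0.11, 132 domains were shorter and 60 longer, so the split between the directions rests on the scaling. Of the domains named in the text, GRK5 and HOXC9 became shorter with that centring, and SPARC, TEAD3 and the CHAF1A domain with a GGAA run were no longer called longer. SDs between replicates were 0.11 (siNEG, n = 2) and 0.10 (siFLI1, n = 2) on the log2 scale, pooled over domains. At least 2-fold apart were 7 shorter and 12 longer domains.

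The rule that chose the domains can itself make arms differ, since a region may reach 10 kb through 1 arm alone. All 4 lists covered 10 kb or more in 287 domains, of which 16 were shorter, 14 longer and 257 neither. In 47 domains only the siNEG lists did so, and 34 of those were shorter. In 50 only the siFLI1 lists did so, and 38 of those were longer. Shortened domains were also broken up: their median number of separate peaks went from 3 in each siNEG list to 5 in each siFLI1 list, at median covered lengths of 11522 and 11262 bp against 8374 and 7961 bp. Lengthened domains filled in, from 5 and 6 peaks to 3, at 7849 and 8021 bp against 11326 and 11254 bp.

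The 10 widest domains were 87.4% to 98.7% covered in siNEG, so none could rise by 1.2-fold, and none fell by that much. The widest held the start sites of CAV2 and CAV1, which encode caveolins of the plasma membrane, at chr7:116488961-116561645, and was covered for 70889 and 70757 bp in siNEG and 68902 and 70339 bp in siFLI1 (log2 ratio -0.02). Next came a stretch between genes over the MIRLET7BHG transcript, the host of let-7 microRNAs, with PPARA as the nearest coding start site. It measured 58548 and 58360 bp against 58426 and 58770 bp. A domain inside IGF1R, the receptor for insulin-like growth factor 1, measured 53968 and 53452 bp against 57742 and 57690 bp, and its siFLI1 lists were both higher (log2 ratio 0.10). Inside GRK5, a kinase of G protein-coupled receptors, the values were 52583 and 51412 bp against 45871 and 46164 bp (log2 ratio -0.18), with the siFLI1 lists both lower. Log2 ratios of the remaining 6 of the 10 widest, at NFIX, IGF2BP1, MYO10, RHOH, KLF14 and KIRREL1, lay between -0.06 and 0.18.

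The 12 largest falls held no coding start site, and 8 of the 12 held a GGAA run. The domain inside NTM, which encodes a neural cell adhesion molecule, was covered for 11127 and 10940 bp in siNEG and 2118 and 1443 bp in siFLI1 (log2 ratio -2.63). At ST8SIA5, a sialyltransferase gene, the values were 10765 and 9116 bp against 2161 and 1462 bp (log2 ratio -2.46). At ZBTB16, the gene of a zinc finger transcription factor, they were 12478 and 12401 bp against 3431 and 2099 bp (log2 ratio -2.17). In all 3 the arms stood far apart, and the last 2 each hold the run printed above while the NTM domain holds none. The domain nearest PCNX1 went from 12368 and 12232 bp to 3233 and 3570 bp and also held no run. Near MUC6, a gastric mucin gene, 9511 and 10769 bp stood against 5752 and 3483 bp. The other 7 of the 12 largest falls, named by ENSG00000289710, C5orf15 with a pair of neighbouring domains, PECR, BACE2, OR4E1 and C1orf127, had log2 ratios from -1.04 to -0.85. Of the 84 shortened domains, 14 held a coding start site, 40 lay inside a gene and 30 between genes.

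None of the 12 largest rises held a GGAA run, and 4 of them held a coding start site. The domain inside ERGIC1, a gene of the transport route from the endoplasmic reticulum to the Golgi, was covered for 2560 and 946 bp in siNEG and 10282 and 10875 bp in siFLI1 (log2 ratio 2.59, and 3.48 or 2.05 without siNEG replicate 1 or 2). Inside TCOF1, which encodes a nucleolar protein, the values were 3005 and 3365 bp against 14622 and 13849 bp (log2 ratio 2.16). At PLEC, the gene of the cytoskeletal linker plectin, 3347 and 2810 bp stood against 9967 and 10059 bp, and inside LIMA1, an actin-binding protein gene, 3770 and 3456 bp stood against 11920 and 10560 bp. In these 4 domains the arms did not come close to each other. IGFBP5, which encodes a secreted binding protein of insulin-like growth factors, went from 4181 and 4151 bp to 10342 and 9647 bp around its start site (log2 ratio 1.26). ZFP36L1, which encodes a protein that destabilises mRNAs, went from 6457 and 4826 bp to 12122 and 11636 bp (log2 ratio 1.07). Another 5 of the 12 largest rises, at BCL2L1, CTPS1, HAAO, SLC38A2 and SUSD1, had log2 ratios of 1.10 to 1.38. Of the 94 lengthened domains, 42 held a coding start site.

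**Figure D1:**
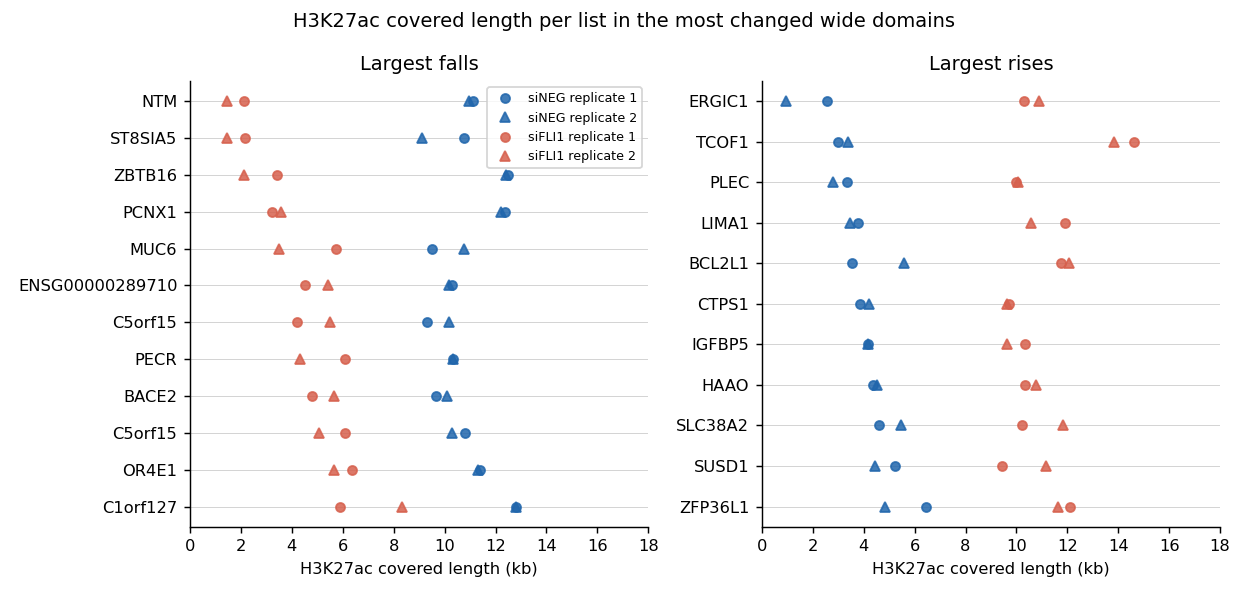
H3K27ac covered length in kb (horizontal axis) per list for the 12 domains with the largest falls (left) and those with the largest rises (right), each named by its gene. Points are single lists, and in every domain drawn both siFLI1 points lie on one side of both siNEG points.

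Domains with a GGAA run had lower ratios than domains without. With a run (n = 122) the median log2 ratio was -0.20 (quartiles -0.51 and -0.08), 106 were below 0, 50 were shorter and 1 was longer. Without a run (n = 473) the median was 0.06 (quartiles -0.05 and 0.21), 34 were shorter and 93 were longer. Room to rise differed, since no longer domain was more than 81.4% covered in siNEG. In siNEG, 500 bp bins around the longest runs were 86.2% to 98.8% covered. Around the centres of domains without a run they were 72.0% to 90.9% covered. How far starting coverage sets the counts and medians was not tested. Relative to the shift of 0.11 both medians lay below 0, and the difference between them, -0.26, does not depend on that shift. The lengthened domain with a run was at CHAF1A, named here after its value was seen, with a log2 ratio of 0.34, and with the centring it was not called longer. In regions of 5 to 10 kb the medians were -0.59 with a run (n = 199) and 0.09 without (n = 2003). The fall with a run was larger in narrower domains: the median was -0.47 at 10 to 12 kb (n = 36), -0.24 at 12 to 16 kb (n = 44) and -0.13 at 16 kb or more (n = 42). Without a run the same medians were 0.07, 0.06 and 0.06. By run length the medians followed no order: they were -0.07 for longest runs of 4 to 8 units (n = 22), -0.27 for 9 to 12 (n = 44) and -0.19 for 13 or more (n = 56). In the same order, 5, 22 and 23 domains were shorter. Median widths were 14870.5, 12880 and 12982.5 bp, and width was not held constant.

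**Figure D2:**
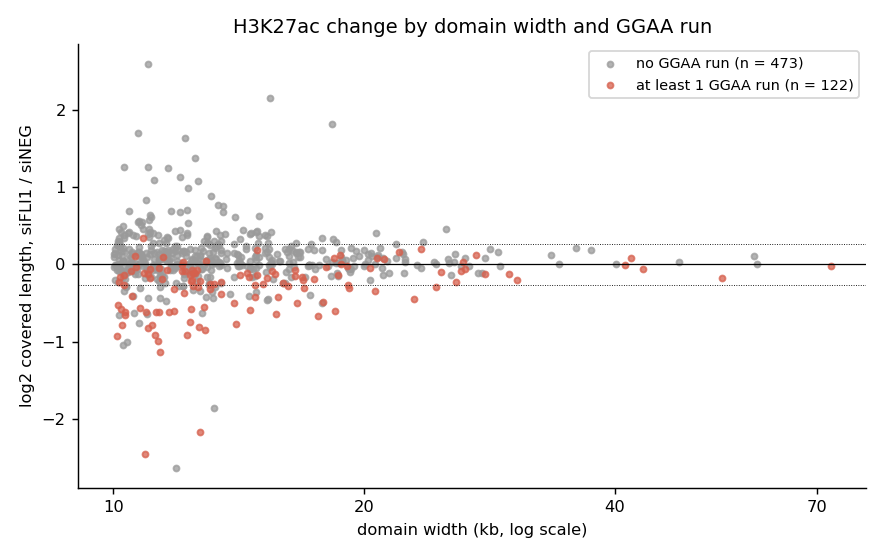
Log2 ratio of H3K27ac covered length, siFLI1 over siNEG (vertical axis), against domain width in kb on a log axis, 1 point per domain. Domains with a GGAA run (red) lie mostly below 0, with a median of -0.20 against 0.06 without (grey). Rises are bounded by the domain's width. Dotted lines mark 1.2-fold.

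In the replicated lists, coverage after siFLI1 differed less next to the runs than a few kb away. In bins of 500 bp around the longest run of each of the 122 domains, 98.7% and 98.1% of in-domain bases 500 to 1000 bp before the run were covered in the siNEG lists, against 90.9% and 91.2% in the siFLI1 lists. At 2500 to 3000 bp before it the values were 97.0% and 94.3% against 71.9% and 69.9%. On the other side, at 2500 to 3000 bp, they were 96.1% and 95.8% against 76.7% and 70.2%. In both siFLI1 lists, bases near the run were covered more often than those 2 to 6 kb away. In the 473 domains without a run, the 500 bp after the domain centre were covered at 87.5% and 90.9% in siNEG and 93.8% and 93.4% in siFLI1.

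**Figure D3:**
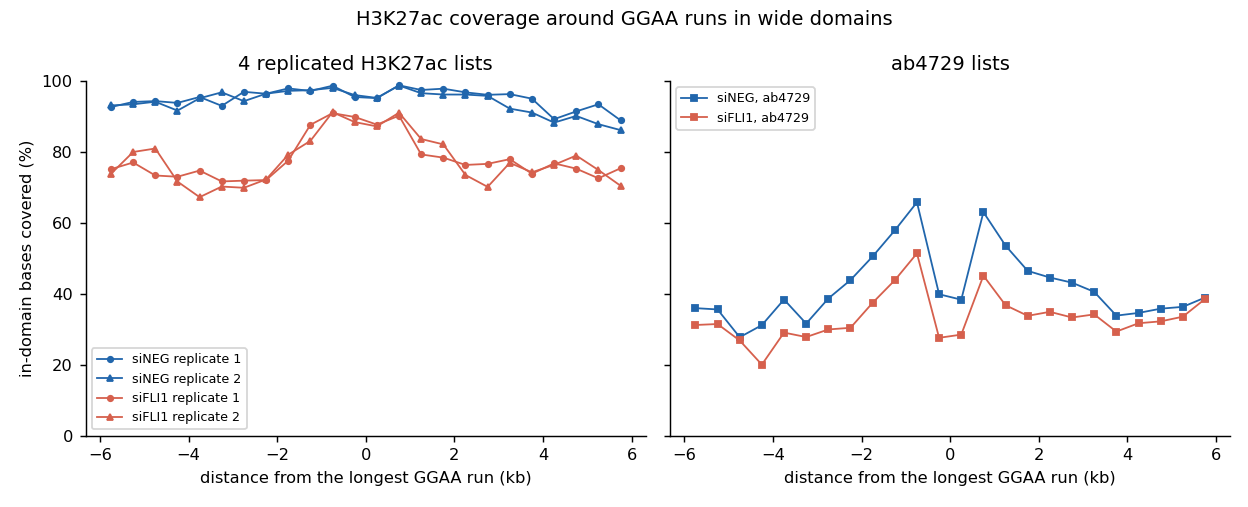
Share of in-domain bases covered by H3K27ac peaks (vertical axis, percent) by distance in kb from the longest GGAA run, in 122 domains. Left, the 4 replicated lists, where siFLI1 lists cover 67.3% to 78.0% of bases at 2 to 4 kb from the run and 70.5% to 81.0% at 4 to 6 kb. Right, the ab4729 lists, which dip at the run itself, with siFLI1 below siNEG next to it.

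The ab4729 pair, which the choice of domains did not use, gave the same order of the classes. Its lists differed in length, with the siFLI1 list longer, and there was 1 library per arm, so no test was made. Of 12866 shared regions with peaks in both ab4729 lists, 16.1% were at least 1.2-fold lower and 58.7% at least 1.2-fold higher in siFLI1, with a median log2 ratio of 0.41. Both lists held 574 of the 595 domains, with a median of 0.54, 82 lower and 383 higher. Of the 80 shortened domains in both lists, 52 were lower (65.0%) and 13 higher, with a median of -0.56. Of the 86 lengthened domains, 85 were higher and 0 lower, with a median of 1.42. The 408 remaining domains had 30 lower and 285 higher, with a median of 0.51. By repeats, the medians were -0.26 with a run and 0.68 without.

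Single named domains had these ab4729 covered lengths. ZBTB16 had 5691 bp in siNEG and 1077 bp in siFLI1, NTM 5545 and 1776 bp, and the domain nearest PCNX1 7863 and 1163 bp. ERGIC1 had 1003 and 7516 bp, TCOF1 1826 and 11303 bp, and TNS3 887 and 8536 bp. IGFBP5 had no ab4729 peak in siNEG and 1463 bp in siFLI1, and PLEC and LIMA1 were likewise listed at 0 in siNEG. The widest domain differed between the sets: CAV2/CAV1 had 23584 bp in siNEG and 42945 bp in siFLI1 by ab4729, while its replicated lists were close to the full width in both arms. Around the runs, 65.8% of bases 500 to 1000 bp before the run were covered in siNEG and 51.4% in siFLI1, and in the 500 bp before the run the values were 39.9% and 27.6%. At 2500 to 3000 bp before the run they were 38.7% and 30.0%, and at 2500 to 3000 bp after it 43.2% and 33.3%. In percentage points the ab4729 fall was larger 500 to 1000 bp before the run than at 2500 to 3000 bp, over a higher starting level, so that pair does not show the smaller difference next to the run seen in the replicated lists.

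**Figure D4:**
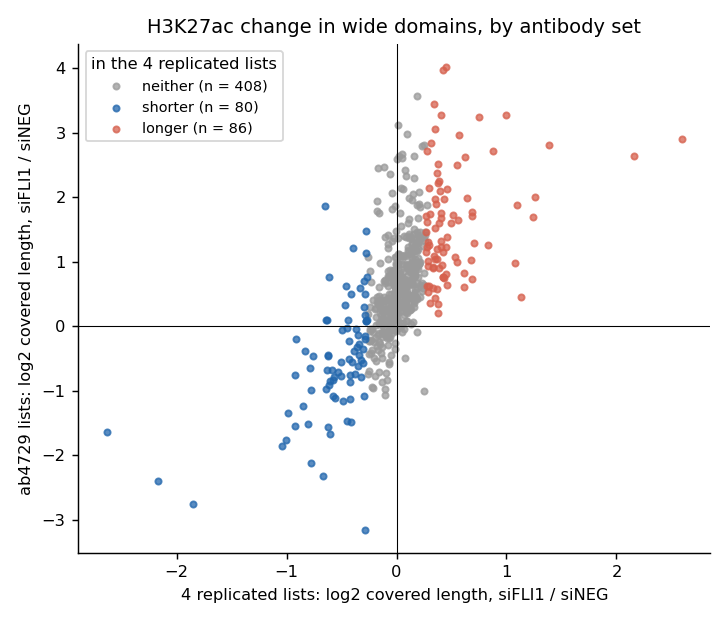
Log2 ratio of covered length, siFLI1 over siNEG, in the ab4729 lists (vertical) against the 4 replicated lists (horizontal) for the 574 domains in both ab4729 lists, coloured by class. Shortened domains (blue) have a median of -0.56 and lengthened domains (red) one of 1.42 on the vertical axis.

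H3K4me3 gave the replicated independent readout, and it was lower over the domains after siFLI1. It was present in all 4 H3K4me3 lists in 322 domains (54.1%) and in none in 248 (41.7%), against 39.8% and 56.7% of all shared regions. Mean H3K4me3 covered length per domain was 3499 and 3581 bp in the siNEG libraries and 3132 and 3197 bp in the siFLI1 libraries, 3540 ± 58.1 bp (SD, n = 2) against 3164 ± 45.9 bp (SD, n = 2). The arms did not overlap, and the log2 difference of -0.16 had an exact two-sided permutation p of 0.33, the smallest that 2 against 2 libraries allow. Over all shared regions the means were 864 and 878 bp against 831 and 840 bp. The H3K4me3 lists held 18914 and 19720 peaks in siNEG and 18344 and 18423 in siFLI1.

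Per region, limma was fitted to log2(covered bp + 100) over the 9552 shared regions with H3K4me3 in at least 2 lists, 338 of them domains. The other 257 domains were not tested. Of the 338, 195 had both siFLI1 lists below both siNEG lists and 48 had both above, where the shares over all 9552 regions were 19.7% and 9.41%. Those shares and the median over all regions are held down by ties, since 4043 of the 9552 differences were below 0, 2669 above 0 and the rest exactly 0, while none of the 338 domains was tied. At an adjusted p under 0.05 (Benjamini-Hochberg over all 9552), 12 domains were lower and 1 was higher, against 0.838% lower and 0.597% higher over all regions. The larger share of lower calls among the domains was not seen in the fits without siFLI1 replicate 1 or 2. Of the 338, 11 had H3K4me3 in 1 arm only and passed the filter through that arm. Among the 327 with H3K4me3 in both arms, 10 were lower and 0 higher. At an unadjusted p under 0.05, 110 of the 338 were lower and 23 higher, where the shares over all regions were 8.11% and 3.26%. The median log2 difference was -0.15 over the domains, 0.00 over all regions and -0.09 over the 902 fitted regions of 5 to 10 kb, of which 624 were below 0 and 15 were called lower. By class it was -0.47 in the 37 shortened domains, 0.00 in the 50 lengthened and -0.15 in the 251 others. None of the 37 shortened domains passed the limma threshold, and 21 were lower and 2 higher at an unadjusted p under 0.05. A fit with replicate number as a block called 0 domains. At an unadjusted p under 0.05 it had 74 domains lower and 17 higher, where the shares over all regions were 6.42% and 2.91%. In the fit without the block, each of the 13 calls was lost in at least 2 of the 4 fits that left out 1 library, and 7 of the 13 were lost in all 4 of those fits.

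Of the 13 domains that passed, the 3 with the largest differences had H3K4me3 in 1 arm only and so had to differ once they were in the fit. Inside DENND2B, a gene of a Rab regulator, H3K4me3 was 0 and 0 bp in siNEG and 649 and 682 bp in siFLI1. In the domain nearest WEE1, the gene of a kinase that restrains entry into mitosis, 368 and 316 bp stood against 0 and 0 bp. A domain inside BCL11B, a zinc finger transcription factor gene, held 278 and 322 bp against 0 and 0 bp. Their log2 differences depend on the pseudocount and are not given. At a pseudocount of 500 bp 4 of the 13 calls were lost, those of WEE1, BCL11B, KIFC3 and TGIF1. Longer stretches shrank inside KIFC3, from 4233 and 4435 bp to 2009 and 2072 bp (log2 difference -1.05), and at ITGB2 and SLX9, from 21776 and 21970 bp to 13847 and 13565 bp (log2 difference -0.67). ITGB2 encodes an integrin subunit of leukocytes. POU3F2, SNX5/MGME1, TGIF1, TMEM250 and TAF1D complete the 10 largest, with log2 differences of -0.34 to -0.15.

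Beside the H3K27ac changes, H3K4me3 in NTM was 5372 and 5463 bp in siNEG and 4035 and 3671 bp in siFLI1 (log2 difference -0.48, limma adjusted p 0.21). In ZFP36L1 it was 5582 and 5716 bp against 7858 and 7755 bp (log2 difference 0.46, SE 0.018, with a limma adjusted p just above the threshold of 0.05). In IGFBP5 it was 4924 and 4734 bp against 6097 and 6206 bp (log2 difference 0.34, limma adjusted p 0.13). None of these 3 passed the threshold, although their arms did not overlap. ST8SIA5, ZBTB16, ERGIC1 and TCOF1 had no H3K4me3 in any list.

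**Figure D5:**
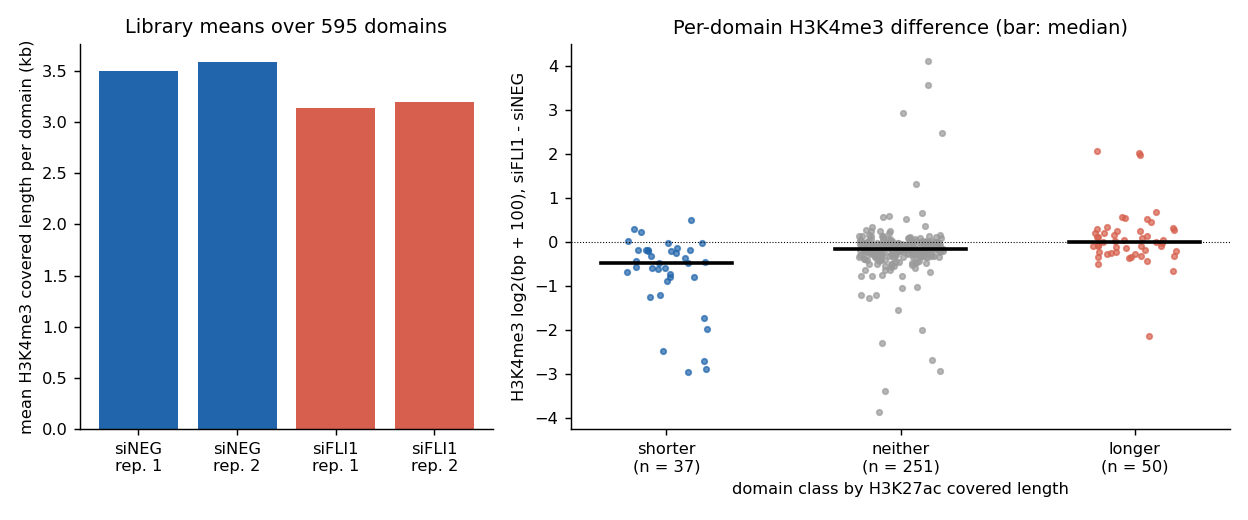
Left, mean H3K4me3 covered length per domain in kb for each of the 4 libraries over 595 domains, with both siFLI1 bars below both siNEG bars. Right, H3K4me3 difference in log2(covered bp + 100) for the 338 fitted domains by H3K27ac class, with medians of -0.47, -0.15 and 0.00 for shorter, neither and longer.

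Among 21 genes that EWSR1::FLI1 is known to raise, 6 had their start site in a wide domain (28.6%, against 1.44% of all coding genes). A share above 1.44% was not particular to this list. It was 23.5% for the axis of insulin-like growth factors and 12.5% for matrix, adhesion and cytoskeleton genes, and 0.0% for the ETS family. The 1.44% counts every annotated coding gene, active or not. Another 7 of the 21 genes were in narrower shared regions, of which STEAP1, IL1RAP and KDSR were shorter. Over all 22129 shared regions under 10 kb, 17.5% were shorter and 30.3% were longer. The remaining 8 genes had a start site in no shared region. Of those 8, PRKCB held a pair of wide domains inside the gene, with log2 ratios of -0.11 and -0.04, both neither. Since a domain had to be present in all 4 lists, a target that lost its domain could not be counted. Among 13 genes the fusion is known to lower, 0 had their start site in a domain, which for so few genes is no departure from 1.44%. In narrower shared regions, CCN2 (log2 ratio 1.72) and JAG1 (0.36) were longer and TNC (-0.32) was shorter. CCN1 and CDKN1A were neither, and the rest of that list had a start site in no shared region. Of the 6 raised genes in domains, SOX6, a developmental transcription factor gene, was shorter, with 10771 and 9992 bp in siNEG and 5980 and 7356 bp in siFLI1. The other 5 were neither: NKX2-2, a homeobox gene of Ewing sarcoma cells, measured 18464 and 17712 bp against 16712 and 16821 bp, and CCND1, which encodes cyclin D1, measured 24961 and 24101 bp against 22397 and 22353 bp. In both, as in BCL11B (21994 and 21220 bp against 20029 and 19958 bp), the siFLI1 lists lay below the siNEG lists without reaching 1.2-fold. LIPI and CAV1 had log2 ratios of 0.04 and -0.02.

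Matrix, adhesion and cytoskeleton genes gave 5 of 40 start sites in domains, with 4 longer, 0 shorter and a median log2 ratio of 0.42. Over all domains 15.8% were longer and 14.1% shorter, and 42 of the 231 domains with a coding start site were longer. FN1, the fibronectin gene, measured 6972 and 6418 bp in siNEG and 9916 and 10536 bp in siFLI1, and TNS3, a focal adhesion gene, 6576 and 5428 bp against 12083 and 11828 bp. H3K4me3 at FN1 was 7095 and 7030 bp against 8005 and 8203 bp, and at TNS3 1712 and 1437 bp against 2648 and 2477 bp, with no overlap of the arms in either, and neither passed the limma threshold (adjusted p 0.13 and 0.29). VCL (vinculin) measured 10104 and 10859 bp against 13929 and 14198 bp, and SPARC, whose call was lost with the centring, 10257 and 10759 bp against 13006 and 12889 bp. ACTN4 was neither, at a log2 ratio of 0.14. In the pathway of YAP and TEAD factors, TEAD3 was longer (log2 ratio 0.37) and AMOTL2 neither. In the axis of insulin-like growth factors, IGFBP5 was longer and IRS1, IGF2BP1 and IGF2BP3 were neither. Of 39 HOX genes, HOXD8 was shorter (log2 ratio -0.29), and HOXB13 and HOXC9 were neither. All 5 neural crest and mesenchymal transcription factors in domains (TFAP2A, ZEB2, PAX3, ID3, OTX2), the 3 chromatin regulators (KDM6B, ARID1A, BCOR), the cell cycle genes CCND1 and CDKN1B, FOS, and the 4 long noncoding RNA genes (MALAT1, NEAT1, SNHG12, MIR222HG) were neither. NEAT1, a long noncoding RNA that builds nuclear paraspeckles, measured 30328 and 30165 bp against 35040 and 34870 bp, with both siFLI1 lists higher. None of the 27 ETS family genes had its start site in a domain. The lists were written with earlier results of these data known, so their counts are descriptions.

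Around the start sites in lengthened domains, coverage was higher after siFLI1 on both sides, in domains that were called for gaining length. Over 54 coding start sites in lengthened domains, 63.2% and 65.3% of in-domain bases at 2000 to 2500 bp downstream were covered in siNEG and 94.9% and 95.8% in siFLI1. The ab4729 lists gave 10.8% and 46.4% there. At 4000 to 4500 bp upstream the replicated lists gave 62.8% and 59.8% against 92.2% and 93.5%, and the ab4729 lists 19.4% and 36.0%. Over 220 start sites in the domains that were neither, the replicated lists gave 89.3% and 89.4% against 95.6% and 95.2% at 2000 to 2500 bp downstream, and 90.6% and 89.9% against 85.4% and 86.3% at 4000 to 4500 bp upstream. That downstream bin had the largest difference between arm means in these domains, 6.03 percentage points. The other downstream bins lay between -0.79 and 4.94. Promoters of a pair of lengthened domains are printed from RefSeq (GRCh38.p14), the 250 bases before the start site, in lower case with CGGAA or TTCCG (the ETS core on either strand) and GGAATG or CATTCC (a TEAD motif on either strand) in capitals. PKM, the pyruvate kinase gene, was chosen after its values were seen, because both siFLI1 ETS1 lists held a peak in its promoter. The same held for the FN1 promoter, which has 0 CGGAA matches and is not printed.
IGFBP5, chr2:216695550-216695799, minus strand: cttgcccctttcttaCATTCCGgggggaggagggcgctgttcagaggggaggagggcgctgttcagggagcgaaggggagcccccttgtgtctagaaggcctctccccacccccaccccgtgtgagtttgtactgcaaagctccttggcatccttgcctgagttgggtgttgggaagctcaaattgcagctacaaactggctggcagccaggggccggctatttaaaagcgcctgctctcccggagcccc
PKM, chr15:72231191-72231440, minus strand: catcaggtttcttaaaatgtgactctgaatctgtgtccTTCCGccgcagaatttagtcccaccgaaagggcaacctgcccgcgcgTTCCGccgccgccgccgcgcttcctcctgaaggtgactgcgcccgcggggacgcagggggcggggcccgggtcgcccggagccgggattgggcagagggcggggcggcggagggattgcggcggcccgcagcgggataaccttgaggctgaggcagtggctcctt
The IGFBP5 promoter holds 1 CGGAA and 1 GGAATG match, which overlap, and the PKM promoter holds 2 CGGAA matches. A CGGAA match was present in 30.3% of 34961 RefSeq promoters and 37.5% of 88 in lengthened domains, and a GGAATG match in 11.9% and 14.8%. In shortened domains the shares were 35.7% and 17.9% of 28 promoters, and in all domains 33.1% and 12.4% of 534. A match is a string of letters and not a bound site.

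ETS1 peaks were listed in 15 and 12 domains in the siNEG lists and in 91 and 116 in the siFLI1 lists. The lists themselves held 302 and 208 peaks in siNEG and 1633 and 2635 in siFLI1, and over all shared regions the shares with a peak were 1.03% and 0.70% against 5.79% and 7.96%. In the domains the same shares were 2.52% and 2.02% against 15.3% and 19.5%. These shares are not corrected for width, and wider regions hold more sequence. The domains took 13.2% of the bases of the shared regions. In the siFLI1 lists they held 113 and 161 of the 1418 and 2022 ETS1 peaks in shared regions, which is less than that share of bases. Peak names inside the siFLI1 replicate 1 list carry the number 2, so the ETS1 lists are given singly, with no mean and no test. By class, the siFLI1 lists held a peak in 2 and 4 of the 84 shortened domains, 16 and 23 of the 94 lengthened and 73 and 89 of the 417 others. Among domains with a coding start site the shares were 32.0% and 39.8%, and among those without they were 4.67% and 6.59%. In the 2202 regions of 5 to 10 kb the siFLI1 lists held a peak in 200 and 264. IRS1, the gene of an insulin receptor substrate, held 0 and 0 ETS1 peaks in siNEG and 4 and 7 in siFLI1.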

How the data were processed

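The deposited files were peak lists of 14 libraries, 1 per library. Per the submitters' processing notes, cutadapt 4.4, BWA 0.7.17, Picard 2.17.11 and MACS2 2.1.1 were named, with the builds GRCh38, hg38 and dm6, and peak coordinates were read as hg38 with GENCODE 44 genes and RefSeq promoters (GRCh38.p14). The role of each tool and the control library are not given in the sources used here. The deposited fold of each peak is the authors' ratio over background, the deposited −log10 values are the authors' p-value and q-value, and the deposited score is a whole number made by the authors. Covered length depends on how many peaks pass a q limit in a list, so it is not a measure of occupancy. Depth was not given in the lists.

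The 4 H3K27ac lists were merged as described, and covered bases were counted once per list (Python 3.11.15, pandas 2.3.3, numpy 2.4.6), with reference sequence read by pysam 0.24.0 and plots drawn with matplotlib 3.10.9. H3K4me3 was compared with limma 3.58.1 (R 4.3.3) on log2(covered bp + 100), filtered to regions with H3K4me3 in at least 2 lists, at an adjusted p of 0.05, and the fit was tested on simulated data. Library means were compared by an exact permutation test (SciPy 1.17.1). Named were the 10 widest domains, the 12 largest falls and 12 largest rises among changed domains, domains at start sites of 12 gene lists, the 10 largest H3K4me3 changes past the threshold, and 3 regions on each side of the width limit. Of the largest rises, 1 is not reported here. Members and lists were chosen with earlier results of these data known. Alternatives covered peak strength, joining overlap, equal list lengths, centring, the fold, the pseudocount, the filter, the replicate block and leaving out each library. The 8 input libraries were not analysed here.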

Additional observations from a re-analysis of the deposited data

How the results depend on the processing

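The 595 domains became 568 with only peaks of −log10 q of at least 5, 542 when joined at 100 bp of overlap, and 478 to 499 when a library was left out. Centring on the median of all shared regions gave 132 shorter and 60 longer domains and a median log2 ratio of -0.0941. A fold of at least 1.5 gave 33 shorter and 26 longer. Leaving out each library gave 75 to 92 shorter, 95 to 99 longer and a median of 0.008 to 0.0289. The GGAA difference of -0.26 stayed between -0.30 and -0.26 over its alternatives, which were added after seeing the data. Among domains tested by limma, 1 was higher and 12 lower. Without the filter 5 were higher, in a fit that limma warned was unreliable because most variances were 0. A pseudocount of 500 bp gave 1 higher and 8 lower. Leaving out a library gave 1 to 4 higher and 8 to 14 lower. Without siFLI1 replicate 1 or 2, 10 and 8 of 338 domains were lower against 355 and 483 of all 9552 regions, so the larger share of lower calls among the domains was not seen in those fits. The H3K4me3 library-mean difference of -0.16 ranged from -0.18 to -0.15 over the alternatives.

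Replicate numbers are shared by the arms, but no label ties them to a batch, and same-numbered libraries deviated together with r of 0.058 (H3K27ac) and -0.049 (H3K4me3), so they share only a number. With the replicate block, 68 domains were shorter and 65 longer at a median of 0.02, the H3K4me3 library-mean difference was -0.16, and limma called 0 higher and 0 lower. Depth is not given in the lists, so what it limits was not tested, and 2 libraries per arm limit every test.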
